A study of Mus musculus with 6 samples.

Results

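The 81 genes described here code for the proteins of the cytosolic ribosome in the mouse, 50 of the large subunit and 31 of the small subunit. They were taken by name, as protein-coding genes with an Rpl or Rps symbol followed by a number and at most a short suffix, plus the stalk genes and Rpsa, out of 48967 gene identifiers to which exonic parts of the count files were assigned. All 81 had counts and all 81 were among the 16020 genes that passed the filter on low counts. Rps4l, Rpl6l and Rpl32l have matching names but are not annotated as protein-coding, and were not taken as members.

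Cytosolic ribosomal proteins bind ribosomal RNA to form the large and the small subunit, which join on an mRNA to make protein. Most are needed in equal copy number, and their mRNAs typically begin with a run of pyrimidines, the TOP motif, through which growth signals control their translation. The early mouse embryo starts out with ribosomes and mRNAs stored in the oocyte and begins major transcription of its own genome at the 2-cell stage.

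The study asked what the removal of lipid droplets does to the preimplantation mouse embryo. Zygotes were treated with cytochalasin B, which loosens the cell cortex, and centrifuged so that the droplets gathered at one side and could be drawn off with a pipette. RNA was sequenced from 3 control and 3 delipidated libraries after depletion of ribosomal RNA.

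Every embryo was wild type (wt) from the F1 cross C57Bl/10 X CBA/H, was cultured in fatty acid-free KSOM and was collected as a 2-cell embryo on day 2. The groups differ in the delipidation. Control embryos are labelled as in vitro culture, and the label does not say whether they were centrifuged or treated with cytochalasin B. Each library is a pool of 3 embryos, and the embryos of 6 females were mixed before they were allocated to groups at random. The pools are therefore the replicates, and a p value here measures the spread between pools.

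Counts summed over the exonic parts assigned to genes came to 12164963, 16165958 and 12980787 in control and 20059460, 16332103 and 14683741 in delipidated libraries. Genes with a count numbered 22855, 22437 and 20582 in control and 17091, 19408 and 20158 in delipidated libraries, so the library with the most counts, Delipidated1, had the fewest. Levels are given below as CPM, the counts of a gene divided by the library total and brought to a common size, with a correction for the composition of each library, always in the order of replicates 1, 2 and 3.

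The stage on the label could be checked against marker genes. Of 9 markers of the 2-cell embryo 8 were matched and all 8 passed the filter, with summed levels of 347, 164 and 347 CPM in control and 253, 366 and 414 CPM in delipidated libraries. Usp17lb, the most abundant of them, stood at 106, 66.3 and 113 CPM in control and 119, 177 and 148 CPM in delipidated libraries. That was 0.64 on the log2 scale for delipidated over control (SE 0.27, adjusted p = 1.0). SE is a standard error worked back from the edgeR test, the absolute log2 fold change divided by the square root of the F statistic. The groups of Usp17lb do not overlap, and it was among the genes at an unadjusted p under 0.05. Of the 8 markers 5 lay above 0 and 3 below, the latter being Usp17la at −1.09 (SE 0.87), Duxf3 at −0.80 (SE 1.46, with 0 counts in Delipidated1) and Zscan4d at −0.01 (SE 0.44). All 12 oocyte markers passed the filter, with sums of 1507, 1065 and 1470 CPM in control and 1174, 1385 and 1679 CPM in delipidated libraries. Oosp1, the most abundant oocyte marker, stood at 561, 338 and 503 CPM in control and 382, 427 and 571 CPM in delipidated libraries. Both marker sets were present in every library, and Control2 was lowest for both.

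No ribosomal protein gene passed the test between delipidated and control embryos. The summed level of the 81 genes was 7176, 9453 and 9029 CPM in control libraries and 9324, 8041 and 6064 CPM in delipidated libraries, or 8553 ± 1211 against 7809 ± 1642 CPM (mean ± SD, n = 3 pools each). The groups overlap: Delipidated1 lies near the top control value, and Delipidated3 lies below all controls. The log2 ratio of the means was −0.13. With a library left out it was 0.02 (Delipidated3), −0.05 (Control2), −0.23 (Control1) or −0.28 (Delipidated1), so its size rests on single pools. In pools of whole embryos, fewer cells of a type and less RNA per cell cannot be told apart.

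**Figure D1:**
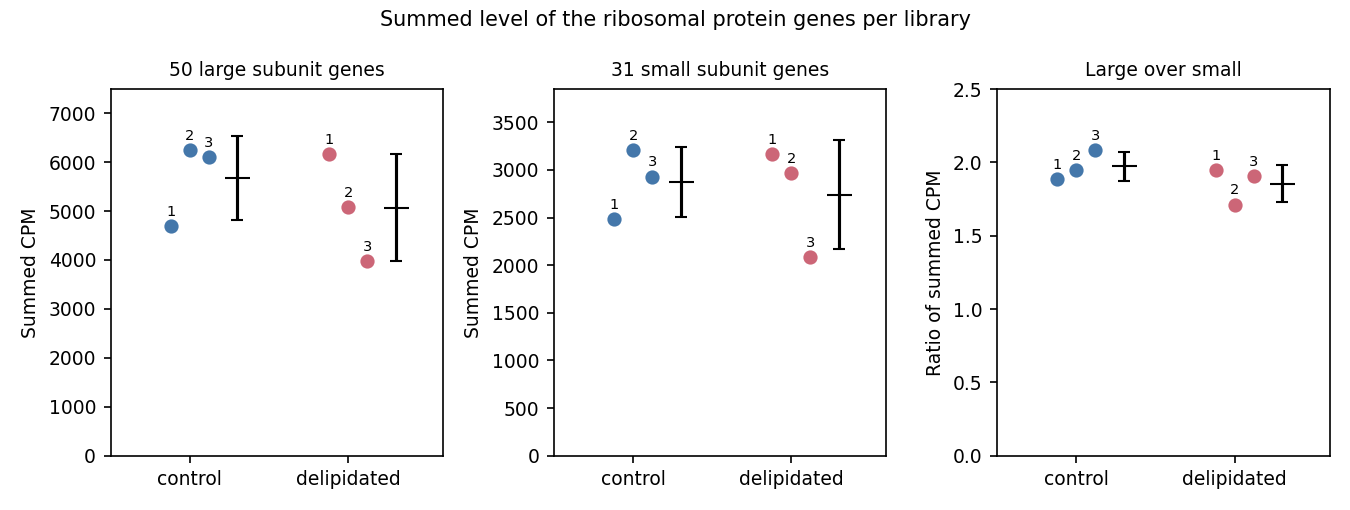
Summed CPM of the large and the small subunit genes, and the ratio of these sums, with a numbered point per library and black bars for the mean and SD of each group. The groups overlap for both subunits, and Delipidated3 has the lowest sum for both, at 3978 and 2086 CPM.

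Large subunit genes summed to 4690, 6245 and 6102 CPM in control and 6160, 5076 and 3978 CPM in delipidated libraries. Small subunit genes summed to 2485, 3208 and 2927 CPM in control and 3163, 2965 and 2086 CPM in delipidated libraries. For both subunits Control1 was the lowest control and Delipidated3 the lowest library of all. The ratio of the large to the small sum, which does not depend on library size, was 1.89, 1.95 and 2.08 in control and 1.95, 1.71 and 1.91 in delipidated libraries, or 1.97 ± 0.101 against 1.86 ± 0.126. On the log2 scale this difference was −0.09, and it was −0.03 without Delipidated2, −0.05 without Control3, −0.13 with single identifiers, which leave 56 of the 81 genes, and −0.16 by the part with most counts, with 80 of them. The ribosomal protein genes took up 0.699, 0.967 and 0.915% of all assigned counts in control and 0.941, 0.801 and 0.585% in delipidated libraries.

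With edgeR, 0 of the 81 genes were called at an adjusted p under 0.05 and an absolute log2 fold change above 1, and 0 of the 16020 genes tested were called (0.0%). Without the filter on low counts DESeq2, at its default settings, called 49 genes and edgeR called 30, none of them a ribosomal protein gene. The limma-voom fit called 0. At an unadjusted p under 0.05 a single ribosomal protein gene, Rps27, was higher, beside 184 of all genes (1.15%). Rplp0, Rpl36a and Rps12 were the 3 lower genes at that level, beside 279 of all genes (1.74%). That count of 4 became 0 with Control3 left out and 8 with Delipidated1 left out. The adjusted p of every one of the 81 genes was 1.0 in this fit, which holds for each log2 fold change given below.

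In 7 ribosomal protein genes all 3 delipidated values lay below all 3 control values, beside 809 of all genes (5.05%): Rplp0, Rpl36a and Rpl10 of the large subunit and Rps12, Rps14, Rps26 and Rps18 of the small subunit. In 0 of them did all delipidated values lie above all controls, beside 611 of all genes (3.81%). An exact permutation test of 3 against 3 libraries cannot give a p below 0.1, so separation of this kind is a description.

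The log2 fold change was below 0 for 58 of the 81 genes (71.6%), beside 50.0% of all genes, and its median was −0.17, beside a median of −0.0007 over all genes. In the large subunit 37 of 50 genes were below 0 (median −0.22), and in the small subunit 21 of 31 (median −0.09). Without the filter on low counts the medians of the 81 genes and of all genes came to −0.17 and −0.18 in edgeR and −0.16 and −0.17 in DESeq2. The members were then not below all genes, though it was mainly the median of all genes that moved. With a stricter filter, a mean count of at least 50, the medians were −0.17 and 0.02. The differences were small: 71 of the 81 (87.7%) lay within 0.5 of 0, beside 62.9% of all genes, and 22 (27.2%) lay beyond their own SE, beside 26.0% of all genes. Those 22 were 19 lower and 3 higher, beside 2129 lower and 2036 higher over all genes. Single libraries weigh on these values. With Delipidated3 left out the median was −0.05, beside −0.06 over all genes, so it was not below theirs. It was −0.09 with Control2 left out (−0.0024 over all genes), −0.11 with Control3 left out (−0.0072), −0.27 with Control1 left out (0.01) and −0.26 with Delipidated1 left out (−0.01). The large subunit median was −0.07 without Delipidated3, −0.13 without Control3, −0.34 without Control1 and −0.34 without Delipidated1. Without Delipidated3 the small subunit median turned to 0.03, and with another library left out it ran from −0.20 (Delipidated1) to −0.02 (Control2).

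Ribosomal protein genes also differed between libraries of the same group. The median log2 ratio of a gene to its own mean was −0.18, 0.18 and 0.13 in control and 0.16, −0.05 and −0.45 in delipidated libraries. Delipidated3 held the lowest value of 37 genes (45.7%, beside 20.2% of all genes) and Control1 that of 19 (23.5%, beside 12.9%). The highest value lay in Delipidated1 for 27 genes (33.3%, beside 18.2% of all genes) and in Control2 and Control3 for 21 each (25.9%, beside 17.1% and 16.3%). Control2 was the lowest library for 0 genes, beside 15.8% of all genes.

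**Figure D2:**
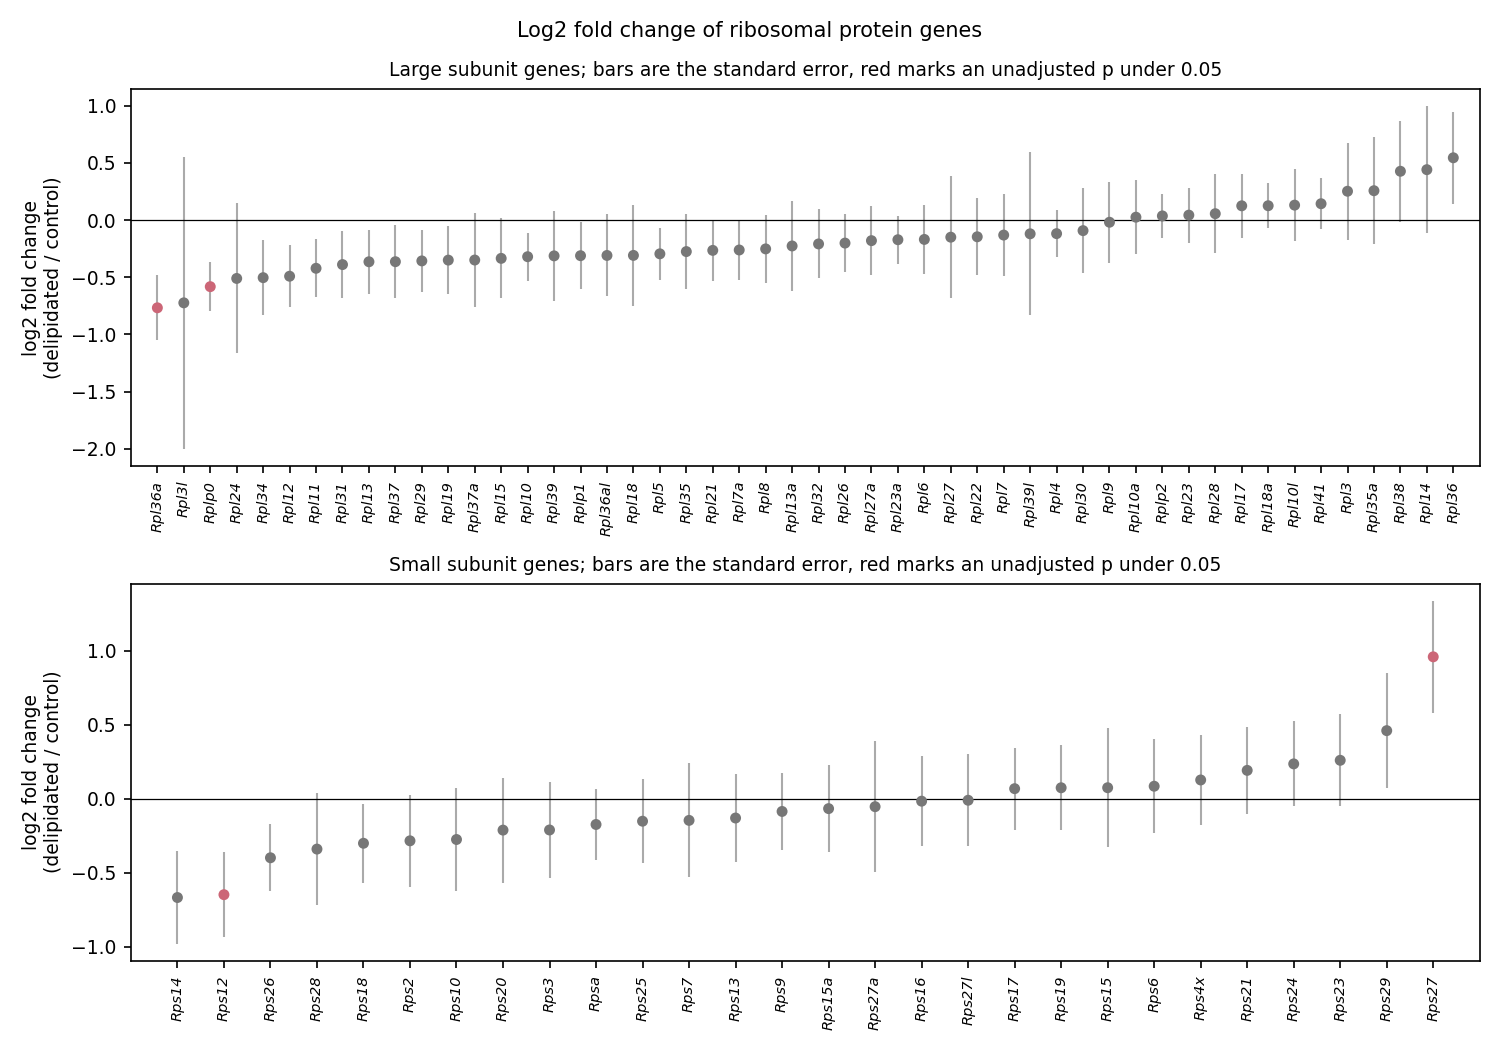
Log2 fold change of ribosomal protein genes, delipidated over control, ordered within the large (top) and the small subunit, with bars of 1 SE and red points for an unadjusted p under 0.05. Values run from −0.77 for Rpl36a to 0.96 for Rps27, and most lie within 0.5 of 0.

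The stalk of the large subunit recruits the translation factors that hydrolyse GTP, and Rplp0 is its base. Rplp0 stood at 335, 432 and 556 CPM in control and 322, 277 and 283 CPM in delipidated libraries. The groups do not overlap, but Control1 lies close to Delipidated1. Its log2 fold change was −0.58 (SE 0.21). Rplp1, one of the acidic proteins that dimerize on that base, stood at 104, 178 and 165 CPM in control and 156, 121 and 82.9 CPM in delipidated libraries. Its groups overlap, with Control1 among the delipidated values, and the log2 fold change was −0.31 (SE 0.29). Its partner Rplp2 stood at 248, 304 and 290 CPM in control and 312, 298 and 253 CPM in delipidated libraries. The values of Rplp2 lie within the same range in both groups, with a log2 fold change of 0.04 (SE 0.19). Summed over the 3 stalk genes the level was 686, 914 and 1010 CPM in control and 790, 697 and 619 CPM in delipidated libraries.

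Rpl5 and Rpl11 bind 5S ribosomal RNA and, before they enter the ribosome, can hold back the p53 ligase Mdm2. Rpl5 stood at 127, 191 and 172 CPM in control and 129, 142 and 129 CPM in delipidated libraries. Control1 is the lowest value of Rpl5, so its groups overlap, and the log2 fold change was −0.30 (SE 0.23). Rpl11 stood at 100.2, 120.4 and 124 CPM in control and 106, 85.6 and 66.2 CPM in delipidated libraries. Delipidated1 lies above Control1 for Rpl11, and the log2 fold change was −0.42 (SE 0.25).

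At the mouth of the tunnel through which the new protein leaves, Rpl17, Rpl19, Rpl23a, Rpl26, Rpl31, Rpl35 and Rpl39 line the exit or stand around it. Of these 7 genes 6 had a log2 fold change below 0, with a median of −0.28 and none past an unadjusted p under 0.05. That median was −0.09 without Control2 (5 of 7 below 0), −0.14 without Delipidated3 and −0.49 without Delipidated1. Summed, they stood at 646, 971 and 814 CPM in control and 815, 707 and 580.3 CPM in delipidated libraries, which overlap. Rpl17 was the gene above 0. For Rpl35 and Rpl23a, 72.5% and 58.7% of counts fall in parts shared with a gene on the opposite strand, so these levels are uncertain.

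Rps2, Rps3 and Rps9 surround the channel where mRNA enters the small subunit. All 3 had a log2 fold change below 0, of −0.28 (SE 0.31), −0.21 (SE 0.32) and −0.09 (SE 0.26), each smaller than its SE. The groups of all 3 overlap, and the sign of Rps3 and Rps9 turned with a library left out.

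Rps14, which helps form the platform of the small subunit, stood at 43.4, 45.5 and 66.7 CPM in control and 29.7, 35.3 and 32.9 CPM in delipidated libraries. All delipidated values lie below the controls, and the log2 fold change was −0.67 (SE 0.31). Rps26, which contacts the mRNA upstream of the codon being read, stood at 137, 146 and 151 CPM in control and 114, 127 and 87.9 CPM in delipidated libraries. The groups of Rps26 do not overlap either, with a narrow control range, and the log2 fold change was −0.40 (SE 0.23). Rps28 stood at 48.7, 48.6 and 112 CPM in control and 73.7, 48.3 and 43.1 CPM in delipidated libraries. Control3 alone carries the higher control mean of Rps28, and its log2 fold change of −0.34 (SE 0.38) turned to 0.18 without Control3.

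Rps15 and Rps23 lie at the decoding site, and both had a log2 fold change above 0. Rps23 stood at 99.9, 151 and 79.7 CPM in control and 145, 166 and 85.5 CPM in delipidated libraries, a log2 fold change of 0.26 (SE 0.31). Rps15 stood at 18.8, 29.2 and 42.3 CPM in control and 36.8, 37.2 and 21.1 CPM in delipidated libraries, a log2 fold change of 0.08 (SE 0.40). Replicate 3 is the lowest library of Rps23 in both groups, and the groups of both genes overlap.

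Rps12, a protein of the beak of the small subunit, stood at 81.8, 83.1 and 103 CPM in control and 66.7, 65.0 and 39.2 CPM in delipidated libraries. The groups of Rps12 do not overlap, and the log2 fold change was −0.65 (SE 0.29). Rps18, on the head of the small subunit, stood at 63.9, 64.3 and 55.3 CPM in control and 46.9, 47.3 and 54.7 CPM in delipidated libraries. Delipidated3 and Control3 nearly meet for Rps18, and the log2 fold change was −0.30 (SE 0.27).

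Rps27 is a zinc finger protein of the small subunit, and it had the highest log2 fold change of the 81. Rps27 stood at 28.9, 46.6 and 30.1 CPM in control and 104, 60.3 and 40.8 CPM in delipidated libraries. Delipidated3 lies below Control2, so the groups overlap, and Delipidated1 is the highest. Its log2 fold change was 0.96 (SE 0.38). Rps6, the target of S6 kinase downstream of mTOR, stood at 115, 111 and 100.3 CPM in control and 102, 176 and 68.0 CPM in delipidated libraries. Delipidated libraries held both the highest and the lowest value of Rps6, and the log2 fold change was 0.09 (SE 0.32). The laminin receptor gene Rpsa, whose product is part of the small subunit, stood at 160.1, 263 and 220.1 CPM in control and 229, 177 and 164 CPM in delipidated libraries. Its groups overlap, with a log2 fold change of −0.17 (SE 0.24).

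**Figure D3:**
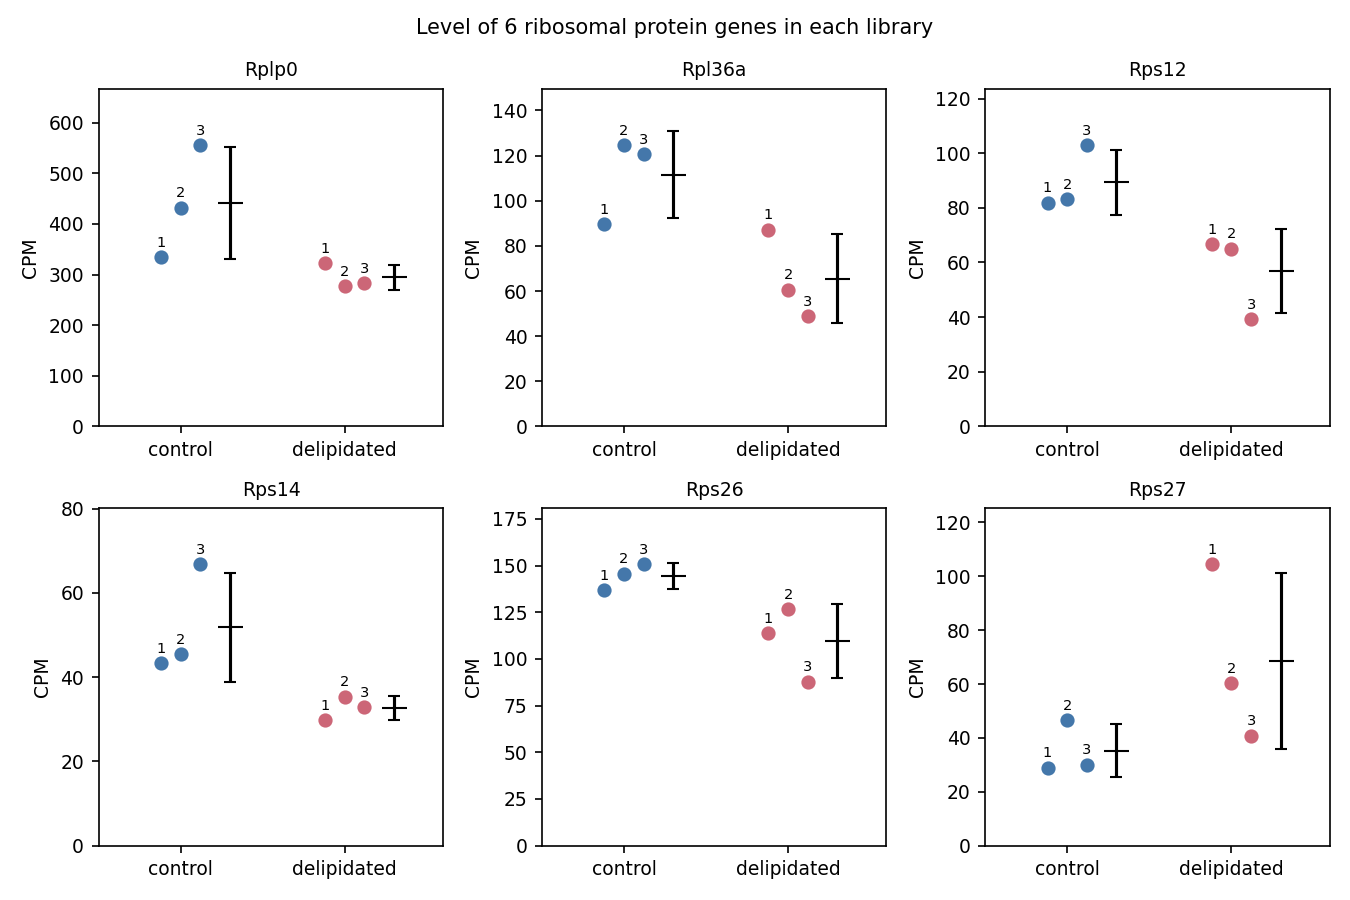
CPM of 6 ribosomal protein genes, with a numbered point per library and black bars for the mean and SD of each group. Rplp0, Rpl36a, Rps12, Rps14 and Rps26 show delipidated points below all control points, while Rps27 overlaps, with Delipidated1 at 104 CPM.

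Among the other genes with a log2 fold change at the top of the range, Rpl36 had 0.54 (SE 0.40), Rps29 0.46 (SE 0.39), Rpl14 0.44 (SE 0.56) and Rpl38, known for a role in translating Hox mRNAs, 0.43 (SE 0.44). Rpl14 shows the spread between pools, at 40.4, 126 and 51.2 CPM in control and 145, 123 and 27.0 CPM in delipidated libraries. Without Delipidated1 its log2 fold change was 0.05 and without Control2 1.10. Rpl36 had 0.32 without Control1, and Rps29 had 0.19 without Control3 and 0.92 without Control2. Rpl38 stood at 18.5, 24.7 and 32.2 CPM in control and 53.0, 31.3 and 16.9 CPM in delipidated libraries, and without Delipidated1 its log2 fold change turned to −0.06.

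On the scale of CPM per kb of exonic sequence, Rpl41, which codes for a very short basic peptide, had the highest control level at 392 CPM per kb. Rps26 had the highest control level of the small subunit at 323 CPM per kb, followed over both subunits by Rplp1 at 299 and Rplp0 at 266 CPM per kb. Rpl3l, Rpl35a and Rpl39l had the lowest control levels at 3.55, 5.69 and 6.36 CPM per kb, beside a median of 45.6 CPM per kb over the 81 genes. The control medians per kb were 46.0 for the large and 41.8 for the small subunit. These levels are approximate, since reads spanning exonic parts enter more than once and the length takes in alternative exons. By counts, the 5 most abundant members held 20.6% of all ribosomal protein counts.

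Several ribosomal proteins are encoded by a pair of similar genes, of which the copy is often most active in the germ line or in a particular tissue. Rpl36a, on the X chromosome at chrX:134585654-134588062, stood at 89.6, 125 and 120.5 CPM in control and 87.2, 60.5 and 48.9 CPM in delipidated libraries. All 3 delipidated values of Rpl36a lie below the controls, and its log2 fold change was −0.77 (SE 0.28). Its autosomal copy Rpl36al stood at 71.3, 63.9 and 64.2 CPM in control and 72.7, 61.6 and 26.5 CPM in delipidated libraries. Delipidated3 is the one low library of Rpl36al, and the log2 fold change was −0.31 (SE 0.36) and 0.01 without that library. Per kb, Rpl36al made up 49.3, 38.5 and 39.4% of the pair in control and 50.5, 55.5 and 39.8% in delipidated libraries.

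Rpl10, also on the X chromosome and needed for joining the subunits, stood at 170, 216 and 156 CPM in control and 142, 149 and 143 CPM in delipidated libraries. Its log2 fold change was −0.32 (SE 0.21), and its groups do not overlap. The testis-type copy Rpl10l stood at 40.1, 40.6 and 44.8 CPM in control and 48.0, 57.3 and 32.0 CPM in delipidated libraries, a log2 fold change of 0.13 (SE 0.32). Per kb, Rpl10l made up 30.6, 26.1 and 34.9% of the pair in control and 38.7, 41.8 and 29.6% in delipidated libraries.

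Rps27l, the p53-responsive copy of Rps27, stood at 53.7, 52.1 and 51.1 CPM in control and 33.8, 64.4 and 57.5 CPM in delipidated libraries. Its control values lie close together and the delipidated ones on both sides of them, with a log2 fold change of −0.01 (SE 0.31). Per kb, Rps27l made up 70.3, 58.8 and 68.4% of the pair in control and 29.3, 57.7 and 64.3% in delipidated libraries. Delipidated1, highest for Rps27 and lowest for Rps27l, is the library that stands apart.

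Rpl3l, the muscle-type copy of Rpl3, made up 9.72, 32.3 and 10.9% of its pair per kb in control and 15.2, 0 and 7.35% in delipidated libraries. Control2 alone is high, and Delipidated2 had 0 counts. Rpl39l made up 23.9, 10.3 and 33.5% of its pair with Rpl39 in control and 10.6, 26.1 and 37.2% in delipidated libraries. Rps4l, annotated in the mouse as a transcribed processed pseudogene of Rps4x, made up 24.7, 24.0 and 32.7% in control and 46.1, 21.7 and 9.33% in delipidated libraries, with a log2 fold change of 0.05 (SE 0.59). Reads of near-identical copies that map to several places were not counted, so these shares are uncertain.

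The 81 genes lie on 19 chromosomes, with 14 on chromosome 7. Of the 4 on the X chromosome, Rpl10, Rpl36a and Rpl39 had a log2 fold change below 0 and Rps4x one of 0.13.

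Because the TOP motif sits at the start of the mRNA, the promoter sequences of RefSeq (build GRCm38.p6) were searched for it. Of the 81 genes 61 were matched, with 73 promoters. The motif was a C within 10 bases of the annotated start followed by at least 4 bases that are each C or T, read on the strand of the gene. It was found in 40 of the 73 promoters (54.8%), beside 10093 of all 32851 (30.7%), and such a C lay exactly at the annotated start in 13 (17.8%), beside 823 of all (2.51%). By subunit, 25 of 45 promoters of the large and 15 of 28 of the small subunit held it. The 38 genes with the tract had a median log2 fold change of −0.16 (25 below 0), and the 23 matched genes without it −0.20 (19 below 0).

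The promoter starts of the genes with the lowest unadjusted p, and of others whose groups do not overlap, are printed to show the tract or its absence in this window. Rps14, whose groups do not overlap either, was not among the matched genes, so it is not shown. Each gives 15 bases before and 15 from the annotated start, 5′ to 3′ on the strand of the gene, with the matching C nearest to the start, and the pyrimidines that follow it, in capitals. Pyrimidines in front of that C are in lower case. Coordinates are Rplp0 chr5:115559452-115559481 (plus strand), Rpl36a chrX:134585639-134585668 (plus), Rps27 chr3:90213634-90213663 (minus), Rps12 chr10:23787195-23787224 (minus), Rps26 chr10:128626492-128626521 (minus), Rps18 chr17:33955651-33955680 (minus) and Rpl10 chrX:74270801-74270830 (plus).
Rplp0: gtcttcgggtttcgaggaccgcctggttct
Rpl36a: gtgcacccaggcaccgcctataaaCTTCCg
Rps27: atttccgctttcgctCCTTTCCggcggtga
Rps12: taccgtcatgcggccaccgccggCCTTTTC
Rps26: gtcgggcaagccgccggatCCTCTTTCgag
Rps18: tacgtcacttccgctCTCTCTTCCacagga
Rpl10: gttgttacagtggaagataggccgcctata
In Rps27 and Rps18 the matching C lies at the annotated start, inside a pyrimidine run that begins upstream of it. In Rpl36a, Rps12 and Rps26 it lies 9, 8 and 4 bases downstream, and Rplp0 and Rpl10 have none in this window.

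Other genes tied to ribosomal proteins also had 0 calls. Of 9 ribosomal protein genes outside the naming rule 7 were tested, and 6 of these had a log2 fold change above 0 (median 0.26). The exception was Rps3a1, at 108, 105 and 118 CPM in control and 72.2, 84.04 and 86.8 CPM in delipidated libraries. The groups of Rps3a1 do not overlap, with a log2 fold change of −0.44 (SE 0.23).

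Of 17 other TOP mRNAs, mostly of translation factors, 11 had a log2 fold change below 0 (median −0.09). Eef1g, a subunit of elongation factor 1, had −0.80 (SE 0.47) and Eif3e, a subunit of initiation factor 3, −0.62 (SE 0.37). Control3 is the highest library of both, and without it they had −0.39 and −0.41. On the other side Eif3h, of the same initiation factor, had 0.43 (SE 0.27) and Eef1b2, another subunit of elongation factor 1, had 0.37 (SE 0.28). Eef1a1, which delivers aminoacyl-tRNA, stood at 313, 329 and 422 CPM in control and 341, 341 and 380 CPM in delipidated libraries, with a log2 fold change of −0.0028. Of 8 genes for proteins that bind TOP mRNAs 4 were above 0 and 4 below. Of 11 genes for chaperones, importins and clearance of ribosomal proteins 6 were below 0, among them the importin Ipo9 at 90.3, 97.2 and 97.9 CPM in control and 59.8, 81.0 and 75.7 CPM in delipidated libraries (log2 fold change −0.40, SE 0.24).

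Ribosomal protein pseudogenes numbered 280 by name, of which 147 had a count and 17 were tested, 9 above and 8 below 0. Rps26-ps1 stood at 0.253, 2.60 and 0.608 CPM in control and 8.74, 2.76 and 2.26 CPM in delipidated libraries, a log2 fold change of 1.97 (SE 1.11) that was 1.11 without Delipidated1 and 3.39 without Control2. Summed, the pseudogenes reached 47.1, 59.1 and 63.1 CPM in control and 71.6, 56.8 and 52.6 CPM in delipidated libraries, far below the sum of the ribosomal protein genes.

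Markers of cells that can cling to an embryo were also counted, although the study removed cumulus cells with hyaluronidase. In the delipidated group their sums had a lower mean for cumulus and granulosa, leukocyte, stromal and red blood cell markers and a higher mean for oviduct markers. Of 17 cumulus and granulosa markers 14 had a count and 5 were tested, and their sums were 33.9, 37.3 and 105 CPM in control and 12.05, 33.4 and 18.6 CPM in delipidated libraries. Amhr2, the receptor for anti-Müllerian hormone, stood at 14.5, 18.2 and 15.6 CPM in control and 9.92, 23.7 and 6.50 CPM in delipidated libraries. Vim, the intermediate filament of mesenchymal and cumulus cells, had 152, 145 and 300 counts in control and 0, 0 and 0 in delipidated libraries, with an adjusted p of 0.0721. Cyp11a1, which starts steroid synthesis, had 4, 0 and 653 counts in control and 0, 0 and 0 in delipidated libraries, so it made up 49.6 of the 105 CPM of Control3. Tnfaip6, of the cumulus matrix, and Cyp19a1, the aromatase, had log2 fold changes of 0.15 (SE 1.02) and 0.03 (SE 1.47), and Star had −1.61 (SE 1.72). Ptx3, Foxl2 and Cd44 were at 0 in every library.

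The sums of 9 leukocyte markers were 23.0, 9.98 and 28.7 CPM in control and 2.77, 9.34 and 13.5 CPM in delipidated libraries. Coro1a had the most counts, 75, 62 and 42 in control and 0, 84 and 27 in delipidated libraries. Axl, with 59, 2 and 206 counts in control and 0, 0 and 0 in delipidated libraries, led in Control3. Csf1r, Laptm5 and Cd68 had log2 fold changes of −0.72 (SE 1.05), −0.95 (SE 1.47) and −0.17 (SE 1.90), and Cd52 had 0.87 (SE 1.64). Ptprc, the leukocyte common antigen, had 9, 0 and 21 counts in control and 0, 0 and 7 in delipidated libraries. The sums of 7 stromal markers were 13.2, 11.9 and 31.6 CPM in control and 1.93, 3.99 and 6.35 CPM in delipidated libraries, with Sparc in the lead in Control1, Control3 and Delipidated3 and Pdgfra in the other libraries. Pdgfra had 30, 83 and 21 counts in control and 39, 57 and 4 in delipidated libraries, and Col1a1 had 11, 26 and 42 counts in control and 0, 0 and 0 in delipidated libraries. All 4 stromal markers that were tested had a log2 fold change below 0. Sparc, at −3.68 (SE 1.33), and Col1a1 were the 2 at an unadjusted p under 0.05. Of 5 red blood cell markers, Hbb-bs and Hbb-bt were at 0 in every library, and the sums were 4.05, 3.99 and 4.94 CPM in control and 0, 1.47 and 0.847 CPM in delipidated libraries, with Alas2 the most abundant by the mean over all libraries. Hba-a1 had 18, 44 and 0 counts and Hba-a2 0, 0 and 51 counts in control, and both were at 0 in all delipidated libraries. Ovgp1 led the 4 oviduct markers in every library but Delipidated3, where Pax8 did, and their sums were 0.253, 6.29 and 1.29 CPM in control and 9.33, 1.90 and 2.26 CPM in delipidated libraries. Control3, highest for the cumulus, leukocyte, stromal and red blood cell sums, was also the highest library of Rplp0, Rps12, Rps14 and Rps26, but the lowest control of Rpl10 and Rps18 and below Control2 for Rpl36a. Their part in the result was not tested.

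For Rpl38, Rpl3l, Rpl41, Rpl35a, Rpl39l, Rpl3, Rpl10l, Rpl36al, Rps27l, Rps4x, Rplp2, Rpl17, Rpl26, Rps3, Rps9, Rpsa, Rps28, Rps15, Rps6 and Rps3a3 the sign of the log2 fold change turned when a single library was left out. Rplp0, Rpl36a, Rps12, Rps14, Rps26, Rpl10 and Rps27 kept their sign in every alternative that was run, but not their size. For all of these but Rps27 the groups do not overlap, so leaving out a library could hardly turn the sign. Rps27 had 0.52 without Delipidated1, Rpl10 −0.17 without Control2, Rplp0 −0.38 without Control3 and Rps26 −0.27 without Delipidated3. Among genes whose groups overlap, Rplp1 ran from −0.54 without Delipidated1 to −0.11 without Delipidated3 and Rps23 from 0.06 without Delipidated2 to 0.56 without Control2. Rps2 ran from −0.49 without Delipidated2 to −0.07 without Delipidated1, Rpl5 had −0.16 without Control2, and Rpl11 had −0.27 without Delipidated3.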

How the data were processed

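Counts per exonic part were taken as deposited by the authors, who made libraries from rRNA-depleted total RNA with a stranded kit, demultiplexed with bcl2fastq 2.20, trimmed with Trimmomatic 0.36, aligned with STAR 2.5.2b (mm10 in the processing notes) and counted unique reads within exons with featureCounts. Parts were summed per Ensembl gene with scripts in Python 3.11.15. Of 33309 parts joined over several genes, 27968 were assigned to a gene, and the others, 2.49 to 2.57% of counts, were left out. A read over several parts can be counted in each, so sums can exceed the number of reads. Symbols and gene types came from GENCODE vM21.

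The test was the edgeR 4.0.16 quasi-likelihood test (R 4.3.3, limma 3.58.1) on all genes kept by filterByExpr (minimum count 10, total 15), with TMM scaling and Benjamini-Hochberg adjustment. Calls needed an adjusted p under 0.05 and an absolute log2 fold change above 1. The common biological coefficient of variation was 0.663. CPM used library sizes scaled by TMM. Alternatives were DESeq2 1.42.0, limma-voom, other scalings and filters, single identifiers, the part with most counts, a replicate block and each library left out. Named genes were those with groups that do not overlap, the largest and smallest fold changes and levels, and the members of the role and paralog lists. Some members are not reported here by name. The scripts were tested on simulated data. The members and lists were chosen with earlier results of these data known. Depth ranged from 12164963 to 20059460 counts.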

Additional observations from a re-analysis of the deposited data

How the results depend on the processing

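With pools of 3 embryos and 3 libraries a group, small differences cannot be resolved, and levels are relative to all other RNA in a library. Genes called numbered 0 in the edgeR fit. Without the filter on low counts they numbered 30 with edgeR and 49 with DESeq2 at its default settings. No ribosomal protein gene was called in any setting. The count at an unadjusted p under 0.05 ran from 0 (Control3 left out) to 8 (Delipidated1 left out). Of 801 gene values under alternatives 767 kept their sign and 34 did not, and 31 of 51 genes kept it throughout. The cause was not tested.

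With the replicate block the median log2 fold change of the 81 genes was −0.167. The numbers in the labels do not pair samples, and the correlations between libraries of the same number were −0.0836, 0.0698 and 0.0428.

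By the part with most counts the log2 fold change was −0.140 for Rpl3, −0.231 for Rpl17 and 0.196 for Rpsa. For Rps6 it was −0.0106 with limma-voom and −0.0241 with the replicate block.

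With 1 library left out, the log2 fold change ran, with the library in brackets, as follows: Rpl38 −0.056 (Delipidated1) to 0.74 (Delipidated3), Rpl3l −2.24 (Delipidated1) to 0.044 (Control2) and Rpl41 −0.092 (Delipidated1) to 0.33 (Delipidated3). Further genes were Rpl35a −0.25 (Delipidated1) to 0.53 (Control1), Rpl39l −0.40 (Control2) to 0.22 (Delipidated1) and Rpl3 −0.086 (Delipidated1) to 0.77 (Control3). Others were Rpl10l −0.065 (Delipidated2) to 0.33 (Delipidated3), Rpl36al −0.59 (Delipidated1) to 0.012 (Delipidated3), Rps27l −0.20 (Delipidated2) to 0.22 (Delipidated1) and Rps4x −0.10 (Delipidated2) to 0.34 (Delipidated1). Then came Rplp2 −0.036 (Control1) to 0.12 (Delipidated3), Rpl17 −0.091 (Delipidated2) to 0.31 (Delipidated3), Rpl26 −0.39 (Control1) to 0.10 (Control2) and Rps3 −0.65 (Delipidated1) to 0.0014 (Delipidated3). In the same way, values were Rps9 −0.29 (Control1) to 0.084 (Control3), Rpsa −0.34 (Control1) to 0.00197 (Control2), Rps28 −0.61 (Delipidated1) to 0.18 (Control3) and Rps15 −0.16 (Control1) to 0.40 (Control3). Last were Rps6 −0.36 (Delipidated2) to 0.35 (Delipidated3) and Rps3a3 −0.36 (Delipidated1) to 1.46 (Control2).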
